A study of Mus musculus with 10 samples.

Results

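The genes described here bring fatty acids to the liver cell and carry them inside it. They were chosen by symbol, as the rows of the deposited table named *Cd36*, *Slc27a2*, *Slc27a4*, *Fabp1*, *Fabp2*, *Fabp4*, *Fabp5*, *Lpl* and *Vldlr*. All 9 were present among the 15126 genes of the table. Their levels are given for the 5 AAV8-Control livers of the series, which come from *db/db* mice that lack a working leptin receptor and become obese, diabetic and steatotic. The mice were 10 weeks old, 5 weeks after adeno-associated virus 8 (AAV8) encoding eGFP. No lean mice and no mice without vector were sequenced, so the values describe steatotic livers that carry a vector. The promoter that drives the transgene is not given in the sources used here. The labels name the tissue as liver but also give primary hepatocytes and an adenovirus treatment in culture, while the study's text describes livers.

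Fatty acids reach the hepatocyte by several routes. Albumin-bound fatty acids cross the plasma membrane with the help of CD36, a scavenger receptor also called fatty acid translocase. Fatty acid transport proteins (FATP, the *Slc27a* genes) couple entry to acyl-CoA formation, with FATP2 encoded by *Slc27a2* and FATP4 by *Slc27a4*. Inside the cell, fatty acid binding proteins (FABP) hold the ligands in solution and pass them on to mitochondria, the endoplasmic reticulum and nuclear receptors. FABP1 is the liver form, FABP2 the intestinal form, FABP4 the form of adipocytes and macrophages, and FABP5 the epidermal form. A further route starts from lipoproteins, whose triglyceride is hydrolysed by lipoprotein lipase (LPL) at the vessel wall, and whose remnants can be bound by the very low density lipoprotein receptor (VLDLR). *Lpl* is silenced in most adult hepatocytes, and several of these genes are known targets of peroxisome proliferator-activated receptors (PPAR).

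The libraries held 19499795 to 35498596 reads on genes, and levels are in CPM, a gene's reads scaled to a library's reads on genes, where 1 read was worth 0.0282 to 0.0513 CPM. Markers of hepatocytes summed to between 96477 and 132036 CPM per liver, most of it *Alb* at 80000 to 111611 CPM, so the sum does not measure a share of cells. Markers of other liver cells were present as well, at 129 to 262 CPM for 10 markers of Kupffer cells and macrophages, 154 to 319 CPM for 8 endothelial markers and 260 to 350 CPM for 8 stellate cell and fibroblast markers. In such mixed tissue, fewer cells of a type and less RNA per cell cannot be told apart. The labels do not say that each library came from its own animal, so the SDs measure the spread between these libraries.

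Sequences before the RefSeq starts of *Fabp1* and *Fabp2* are shown, as genes of the liver form, which had the highest level of the 9 genes, and of the intestinal form, which was second among the 4 *Fabp* genes of the 9. Each sequence is the 250 bases before the RefSeq transcription start on the GRCm38.p6 assembly, 5′ to 3′ on the gene's strand, which is the forward strand for both. For *Fabp1* this start lies 52 bases downstream of the gene's start in the GENCODE model used for coordinates and lengths, so the last 52 bases printed, TATAAA included, fall inside that model, while for *Fabp2* both starts are the same base. Capitals mark matches to AGGNCANAGGNCA on either strand and to TATAAA on the gene's strand.
Fabp1, chr6:71199629-71199878: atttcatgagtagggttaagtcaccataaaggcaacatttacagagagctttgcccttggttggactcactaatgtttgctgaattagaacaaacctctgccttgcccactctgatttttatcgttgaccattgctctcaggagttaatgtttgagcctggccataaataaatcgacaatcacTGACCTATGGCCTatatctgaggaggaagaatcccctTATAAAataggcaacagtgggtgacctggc
Fabp2, chr3:122894822-122895071: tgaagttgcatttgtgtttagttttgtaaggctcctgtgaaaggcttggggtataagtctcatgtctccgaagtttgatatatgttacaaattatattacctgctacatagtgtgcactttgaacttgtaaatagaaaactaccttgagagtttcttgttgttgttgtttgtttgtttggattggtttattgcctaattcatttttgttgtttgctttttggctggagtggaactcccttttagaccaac

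Windows from 250 bases before to 50 bases after the start were available for 6 of the 9 genes, as 7 windows. *Fabp4*, *Fabp5* and *Lpl* had none and were not searched. The direct repeat AGGTCANAGGTCA, the element that dimers of a PPAR and a retinoid X receptor bind, was in none of these 7 windows on either strand, and in 0.0396% of the 32851 windows of all genes. The looser form AGGNCANAGGNCA was in the *Fabp1* window alone among the 7, on the reverse strand at positions -67 to -55 from the start, and in 0.381% of all windows. Single AGGTCA elements, which overlap the longer repeats, were in windows of *Cd36*, *Fabp1* and *Slc27a2* and in 16.3% of all windows. The RefSeq starts of *Cd36* and *Slc27a2* lie 52905 and 617 bases downstream of their starts in the GENCODE model, so these windows fall inside that model. TATAAA was in the *Fabp1* window alone among the 7, at positions -30 to -25, and in 8.32% of all windows. These matches describe letters in the windows and are not measured binding sites, and no matched letters stand in the *Fabp2* sequence printed here.

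Per kilobase of merged exon, the 9 genes formed a steep order. *Fabp1* stood first with 3923 ± 832 CPM per kilobase (SD, n = 5 livers), which placed it 15th among the 15119 genes that could be ranked. *Slc27a2* followed with 244 ± 17.6 and *Cd36* with 119 ± 6.11 CPM per kilobase, and 98.8% and 97.7% of all genes were lower. *Fabp2*, the intestinal form, came next with 83.4 ± 14.7 CPM per kilobase, above *Slc27a4* with 16.7 ± 3.50. Each of these genes exceeded the next in 5 of 5 livers, and the ranges did not overlap.

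The remaining 4 genes were lower on this measure, with *Fabp4* at 4.46 ± 1.43, *Vldlr* at 2.15 ± 0.492, *Lpl* at 1.501 ± 0.394 and *Fabp5* at 0.788 ± 0.331 CPM per kilobase (SD, n = 5 livers). The merged exons of *Fabp4*, 4489 bases, fill its whole span, introns included. Those of *Fabp5*, 3567 bases, fill most of its span, while *Fabp1* was divided by 553 bases. Longer lengths lower a value per kilobase, so the places of *Fabp4* and *Fabp5* depend on these gene models. The ranges over livers overlapped for *Fabp4* and *Vldlr*, for *Vldlr* and *Lpl*, and for *Lpl* and *Fabp5*. *Vldlr* exceeded *Lpl* in 4 of 5 livers, and the other neighbours kept their order in 5 of 5. With the length of the longest transcript in place of merged exons, *Lpl* at 3.82 ± 1.004 CPM per kilobase came before *Vldlr* at 2.72 ± 0.621, so that the order of these neighbours depends on the length used. The other 7 genes kept their places. The longest transcripts of *Fabp4* and *Fabp5*, 4231 and 3238 bases, are nearly as long as their merged exons. This alternative could therefore not show how far the places of *Fabp4* and *Fabp5* rest on length.

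**Figure D1:**
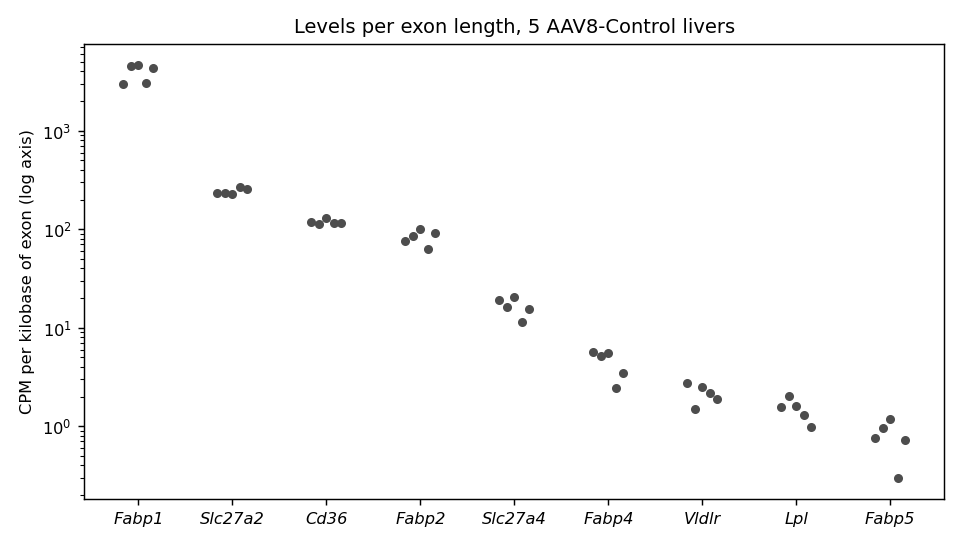
Level of each of the 9 genes in CPM per kilobase of merged exon (y axis, log scale), with 1 point per AAV8-Control liver. *Fabp1* lies above every other gene in all 5 livers, and *Fabp4*, *Vldlr*, *Lpl* and *Fabp5* lie lowest, with ranges that overlap between neighbours.

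CD36 is encoded by *Cd36* (ENSMUSG00000002944), on the reverse strand of chromosome 5 of GRCm38, from 17781690 to 17888801. The AAV8-Control livers 1 to 5 had 429.6, 408.0, 464.1, 416.3 and 418.8 CPM of *Cd36*. Liver 3 was the highest and the other 4 lay close together. The mean was 427 ± 21.9 CPM (SD, n = 5 livers), and the highest liver was 1.14 times the lowest. With all 5 livers *Cd36* had the smallest coefficient of variation of the 9 genes, 5.13%, and with single livers left out it was 2.13% without liver 3 and up to 5.93% without liver 1. Counting error alone would give 0.994%.

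FATP2, a transport protein of liver and kidney, is encoded by *Slc27a2* (ENSMUSG00000027359), on the forward strand of chromosome 2 from 126552407 to 126588243. Its levels in livers 1 to 5 were 880.0, 878.1, 859.2, 1016 and 955.0 CPM. Livers 4 and 5 were the highest, and the other 3 lay close together, with liver 3 the lowest in CPM and liver 1 the lowest after median-of-ratios scaling. The mean was 918 ± 65.9 CPM (SD, n = 5 livers) with a coefficient of variation of 7.18%, which was 4.74% without liver 4, below the 5.65% of *Cd36* in the same 4 livers. Exons of *Slc27a2* share 419 bases with the lincRNA *Gm26697* on the opposite strand. Whether counting used strand is not given in the sources used here, so reads of that stretch cannot be assigned to either gene with certainty.

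*Slc27a4* (ENSMUSG00000059316), for FATP4, lies on the forward strand of chromosome 2 from 29802634 to 29817522. Livers 1 to 5 had 84.9, 72.2, 90.7, 50.9 and 69.1 CPM. Liver 3 was again the highest and liver 4 the lowest, the reverse of their order for *Slc27a2*. The mean was 73.5 ± 15.5 CPM (SD, n = 5 livers), and the coefficient of variation of 21.0% was 12.9% without liver 4. *Slc27a5*, which encodes the bile acid-CoA ligase FATP5 of hepatocytes, was the highest per kilobase of the other transport and membrane genes, at 467 ± 20.8 CPM per kilobase, above *Slc27a2*.

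Of the binding proteins, *Fabp1* (ENSMUSG00000054422) lies on the forward strand of chromosome 6 from 71199827 to 71205023. Livers 1 to 5 had 1641, 2530, 2590, 1704.5 and 2381 CPM of *Fabp1*, from 32008 to 91942 reads. The livers lay at a lower level in 1 and 4 and at a higher level in 2, 3 and 5. The mean was 2169 ± 460 CPM (SD, n = 5 livers), with a coefficient of variation of 21.2%, while counting error alone would give 0.448%.

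*Fabp2* (ENSMUSG00000023057) lies on the forward strand of chromosome 3 from 122895072 to 122899506. Its levels in livers 1 to 5 were 73.8, 82.2, 97.6, 60.3 and 88.3 CPM. As for *Fabp1*, livers 2, 3 and 5 were above livers 1 and 4. The mean was 80.4 ± 14.2 CPM (SD, n = 5 livers), and its coefficient of variation of 17.7% was 11.7% without liver 4. Defining markers of enterocytes, the cells best known for FABP2, were at or near 0, with *Vil1* at 0 to 0.182 CPM, *Lct* at most 0.0282 CPM and *Rbp2* at most 0.0483 CPM. The 4 enterocyte markers listed summed to 420 to 1076 CPM, nearly all of it *Apoa4*, an apolipoprotein that liver also makes, and their sum, like *Fabp2*, was higher in livers 2, 3 and 5 than in livers 1 and 4. The part of *Apoa4* in this order was not tested.

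**Figure D2:**
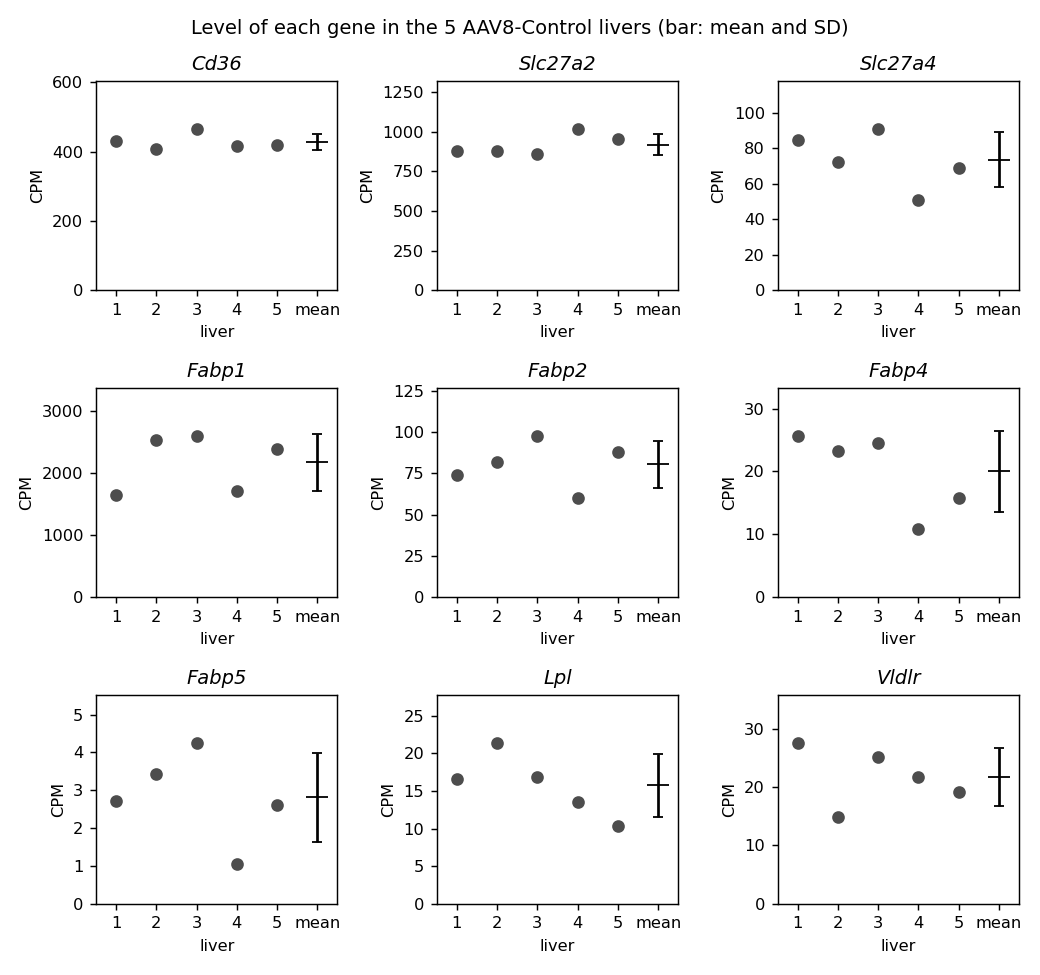
Level of each of the 9 genes in the AAV8-Control livers 1 to 5 (x axis, liver, y axis, CPM from 0), with a bar for the mean and SD (n = 5 livers). *Cd36* and *Slc27a2* vary little, while *Fabp4* and *Fabp5* are lowest in liver 4.

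*Fabp4* (ENSMUSG00000062515) and *Fabp5* (ENSMUSG00000027533) both lie on chromosome 3, on the reverse strand from 10204088 to 10208576 and on the forward strand from 10012548 to 10016607. *Fabp4* was at 25.6, 23.3, 24.6, 10.9 and 15.7 CPM in livers 1 to 5. Livers 1, 2 and 3 lay together, with liver 5 below them and liver 4 the lowest. The mean was 20.02 ± 6.44 CPM (SD, n = 5 livers), and the coefficient of variation of 32.2% was 20.2% without liver 4. For adipocytes, the cells with most FABP4, the 8 markers summed to 2160 to 4052 CPM, mostly *Car3*, which hepatocytes also express. Of the other adipocyte markers, *Cidec*, for a lipid droplet protein that steatotic hepatocytes also make, was at 21.9 to 80.6 CPM, *Lipe*, for hormone-sensitive lipase, at 12.7 to 20.6 CPM, *Cfd*, for adipsin, at 1.02 to 9.85 CPM and *Retn*, for resistin, at 1.09 to 3.38 CPM. Lower still, *Adipoq*, the adipocyte's own hormone, was at 0.0967 to 1.23 CPM, *Plin1*, the droplet coat of the adipocyte, at 0.0364 to 0.578 CPM, and *Lep* at 0 to 0.103 CPM. The 8 adipocyte markers summed to 3582, 3491, 2160, 3469 and 4052 CPM in livers 1 to 5, highest in liver 5 and lowest in liver 3, an order set by *Car3* and unlike that of *Fabp4*. The 10 markers of Kupffer cells and macrophages summed to 202, 262, 246, 161 and 129 CPM in livers 1 to 5, and the 8 endothelial markers to 319, 218, 268, 154 and 211 CPM. Both of these sums were, as *Fabp4* was, higher in livers 1, 2 and 3 than in livers 4 and 5. The endothelial sum was so only narrowly, with 218 CPM in liver 2 and 211 CPM in liver 5. *Pecam1*, *Cdh5* and *Gpihbp1* kept this split, while *Stab2*, *Kdr*, *Ptprb*, *Lyve1* and *Clec4g* did not. Of the macrophage markers, *Marco* and *Trem2* did not keep it and the others did. Of the adipocyte markers, *Adipoq*, *Plin1*, *Cfd* and *Retn* kept it, and *Car3*, *Cidec*, *Lipe* and *Lep* did not. The part of any of these cells in the *Fabp4* values was not tested.

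*Fabp5* was at 2.72, 3.42, 4.25, 1.06 and 2.61 CPM in livers 1 to 5, from 29 to 151 reads. Liver 3 was the highest and liver 4 the lowest, as for *Slc27a4* and *Fabp2*. Livers 1 and 5 had 53 and 54 reads and could not be ordered. The highest liver was 4.02 times the lowest, the widest range of the 9 genes with all 5 livers, but 1.63 times without liver 4, below the 2.08 of *Lpl* and the 1.85 of *Vldlr* in the same livers. The mean was 2.81 ± 1.18 CPM (SD, n = 5 livers), with a coefficient of variation of 42.0%, or 23.4% without liver 4, where counting error alone would give 13.2%. *Fabp5* has processed pseudogenes, and counting of uniquely aligned reads may have lost some of its reads to them.

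LPL, on the lipoprotein route, is encoded by *Lpl* (ENSMUSG00000015568), on the forward strand of chromosome 8 from 68880491 to 68907448. *Lpl* stood at 16.6, 21.4, 16.9, 13.5 and 10.3 CPM in livers 1 to 5, from 213 to 599 reads. Liver 2 was the highest and liver 5 the lowest, ends that no other gene of the 9 had in these livers. The macrophage marker sum was also highest in liver 2 and lowest in liver 5, as was the cholangiocyte marker sum at 11.2 and 6.48 CPM. The part of these cells in the *Lpl* values was not tested. The mean was 15.7 ± 4.13 CPM (SD, n = 5 livers), with a coefficient of variation of 26.3%. *Gpihbp1*, the endothelial protein that anchors LPL, was at 22.2 ± 5.40 CPM, and *Angptl4*, an inhibitor of LPL, at 90.8 ± 14.4 CPM (SD, n = 5 livers). Per kilobase these partners had 8.68 ± 2.11 and 25.7 ± 4.08 CPM, above the 1.501 of *Lpl* itself.

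VLDLR is encoded by *Vldlr* (ENSMUSG00000024924), on the forward strand of chromosome 19 from 27216484 to 27254231. Livers 1 to 5 had 27.5, 14.9, 25.1, 21.8 and 19.1 CPM. Liver 1 was the highest and liver 2, which was the highest for *Lpl*, the lowest. The mean was 21.7 ± 4.95 CPM (SD, n = 5 livers), with a coefficient of variation of 22.9%.

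Spread differed widely among the 9 genes. Over the 11041 genes with a mean of 1 CPM or more, the median coefficient of variation was 10.6%, and 7 of the 9 genes lay above it and 2, *Cd36* and *Slc27a2*, below it. Of those genes, 98.1% varied less than *Fabp5*, 94.8% less than *Fabp4* and 90.6% less than *Lpl*, while 11.4% varied less than *Cd36*. That last share rested on single livers and was 1.43% without liver 3 and 24.7% without liver 1. Both ends of this order changed when liver 4 was left out, where *Slc27a2* had the smallest value at 4.74% and *Lpl* the largest at 28.0%, followed by *Vldlr* at 26.4% and *Fabp5* at 23.4%. Without any other single liver, *Cd36* and *Fabp5* kept the ends, and 7 of the 9 genes lay above the median in each of these sets. Every one of the 9 genes varied by more than counting error alone would give. Liver 3 was the highest for 5 of the 9 genes (*Cd36*, *Slc27a4*, *Fabp1*, *Fabp2* and *Fabp5*), and liver 4 the lowest for 4 of them (*Slc27a4*, *Fabp2*, *Fabp4* and *Fabp5*). After median-of-ratios scaling liver 3 was also the highest for *Fabp4*, and liver 1 in place of liver 2 the lowest for *Cd36*. With 5 livers, no correlation between genes is given.

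**Figure D3:**
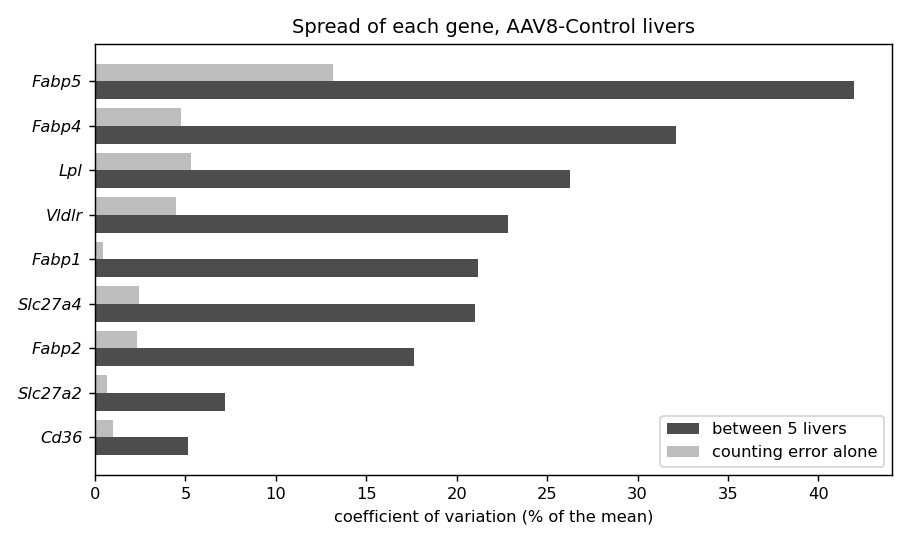
Coefficient of variation of each of the 9 genes between the 5 AAV8-Control livers (dark bars, percent of the mean, from 0) beside the value that counting error alone would give (light bars). With all 5 livers *Cd36* has the smallest spread at 5.13% and *Fabp5* the largest at 42.0%, and without liver 4 these places go to *Slc27a2* and *Lpl*.

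Other genes of the same routes were taken from 6 lists and are given per kilobase. The other transport and membrane proteins had 8 of 12 genes at a mean of 1 CPM or more. Of the other fatty acid and acyl-CoA binding proteins, 9 of 14 were, and *Scp2*, for sterol carrier protein, had 499 ± 62.5 CPM per kilobase, below *Fabp1* and above *Fabp2*. *Scp2* was not the highest of that list. *Fabp7*, the brain form, had 1.35 ± 0.337 CPM per kilobase. Acyl-CoA synthetases and thioesterases, which act on the fatty acids next, had 13 of 15 genes at that level, with *Acsl5*, a long-chain synthetase, the highest at 143 ± 32.9 CPM per kilobase.

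Lipases and regulators of LPL had 17 of 17 genes at a mean of 1 CPM or more, led by the apolipoprotein gene *Apoc1* at 6036 ± 578 CPM per kilobase. In the LDL receptor family with its chaperones, 13 of 15 genes were, and *Lrp1*, a remnant receptor of the hepatocyte, had 32.4 ± 5.22 CPM per kilobase, against 2.15 for *Vldlr*. The highest of that list was *Sdc1*, a heparan sulfate proteoglycan that binds remnants, at 69.7 ± 14.9. Regulators known to act on promoters of the 9 genes had 20 of 20 genes at that level. *Ppara*, the fatty acid receptor of the hepatocyte, was at 101 ± 9.91 CPM, and *Pparg*, a nuclear receptor that drives *Cd36* and *Fabp4*, at 30.5 ± 2.78 CPM. Per kilobase they had 26.3 ± 2.58 and 10.3 ± 0.942 CPM, and each ± is an SD over 5 livers.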

How the data were processed

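Per the submitters' processing notes and the methods, poly-A RNA was read as single reads of 50 bases, aligned with STAR 2.0.4b to GRCm38.p2 with Ensembl release 76 and counted with featureCounts 1.4.5. The authors deposited CPM, scaled to all reads counted on genes. Dividing by the CPM of a single read gave whole reads for 100% of values (tolerance 0.01 reads). The table's 15236 lines hold 15126 genes, as 110 lines are repeats. Results that need the other group of the series, and some genes, are not reported here, and so no test between groups was run.

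Samples were grouped by the labels' titles, where the AAV8-Control livers are titled Gfp. Means, SDs and coefficients of variation were taken over the 5 libraries with pandas 2.3.3 in Python 3.11.15. The spread expected from counting alone is the mean over libraries of the reciprocal square root of a gene's reads, and it covers counting error only. Coordinates and lengths came from GENCODE release M21 on GRCm38, for 15119 genes, and promoters from RefSeq. The 9 genes and all lists were chosen with earlier results of these data known. Beside the 9 genes and their known partners, the other genes were named for their levels, after these were seen. Alternatives were the longest transcript as the length, each library left out, and median-of-ratios scaling, which was added after seeing the data. No pair of libraries was near a duplicate (lowest chi-square per degree of freedom 16.8).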

Additional observations from a re-analysis of the deposited data

How the results depend on the processing

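All 9 genes kept their place in the order per kilobase with each library left out in turn and with median-of-ratios scaling, and 7 of the 9 with the longest transcript as the length, where *Lpl* and *Vldlr* changed places. For *Fabp4* and *Fabp5* both lengths are nearly the same, so the longest transcript could not show how far their places rest on length. Without single libraries, the mean ranged from 2064 to 2301 CPM for *Fabp1*, from 76.2 to 85.5 CPM for *Fabp2* and from 2.45 to 3.25 CPM for *Fabp5*, and no mean of the 9 genes moved by as much as its SD. Coefficients of variation moved by over 1.5 times for *Cd36* without liver 3 (from 5.13% to 2.13%) and for *Slc27a2*, *Slc27a4*, *Fabp2*, *Fabp4* and *Fabp5* without liver 4 (for *Fabp5*, from 42.0% to 23.4%). For the other 3 genes the largest move came without liver 1 for *Fabp1* (21.2% to 17.7%), without liver 2 for *Vldlr* (22.9% to 15.9%) and without liver 5 for *Lpl* (26.3% to 18.9%). Depth limits *Fabp5* most, with 29 reads in its lowest library. No paired analysis was possible because 1 group is reported. Other fits, filters and scalings of tests between groups were not run for the same reason.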
